A study of Mus musculus with 8 samples.

Results

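The genes of cholesterol synthesis and transport were followed from oligodendrocyte progenitor cells (OPCs) to the oligodendrocytes (OLs) made from them. The members were 39 gene symbols listed by name, from the enzymes that build cholesterol to the proteins that sense, carry, take up and store it. Of these, 30 had a row in the deposited table of 10987 transcripts of 10982 genes, each member with 1 transcript. The other 9 symbols (Hmgcs1, Mvd, Ggps1, Sc5d, Srebf2, Erlin2, Abcg1, Lrp8 and Osbp) were not analysed here.

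The OPCs were derived in culture from epiblast stem cells of male mouse embryos of strain 129S/SvEv. They were grown on poly-L-ornithine and laminin in N2 Max, B27, bFGF and PDGFA. For the OLs, such OPCs were first passaged in growth medium that lacked bFGF. They were then kept in a differentiation medium that held N2 Max, B27, noggin, IGF-1, cyclic AMP, NT3 and T3 (thyroid hormone). Both kinds of cells were frozen after 3 days. Each cell type had 2 cultures, and every culture gave a library of ribosome footprints, the mRNA fragments that ribosomes shield from micrococcal nuclease (MNase), and a library of total RNA fragments from the same lysate (RNA-seq), 8 libraries in all. The plates of a culture were pooled, and per the study part of each differentiated culture was still undifferentiated.

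Cholesterol is built from acetyl-CoA through mevalonate, isoprenoid diphosphates, squalene and lanosterol, and most steps run in the endoplasmic reticulum (ER). When ER sterol is low, the escort protein SCAP carries the transcription factor SREBP-2 to the Golgi, where it is cut and released to switch on the genes of synthesis, and INSIG proteins hold SCAP back when sterol is plentiful. When sterol is plentiful, liver X receptors turn on the genes of export. Myelin is rich in cholesterol, and since lipoproteins of the blood do not cross into the brain, oligodendrocytes depend on cholesterol made within the nervous system.

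The promoters of synthesis genes are shown first because many of them hold the same short letters. Promoter windows from RefSeq (build GRCm38.p6), from 250 bases before to 50 bases after a start site, were matched by symbol to 25 of the 30 members, with 38 windows. The bases from -180 to -1 before the start site are printed for 5 synthesis enzymes and for the receptor Vldlr, which lies outside the enzyme group. Capitals mark CCAAT or its reverse ATTGG, the letters bound by the factor NF-Y, and GGGCGG or its reverse CCGCCC, the GC box bound by Sp1. Their places are Mvk (chr5:114444089-114444268, plus strand), Idi1 (chr13:8885426-8885605, plus strand), Lss (chr10:76531425-76531604, plus strand), Msmo1 (chr8:64733579-64733758, minus strand), Hsd17b7 (chr1:169969206-169969385, minus strand) and Vldlr (chr19:27216840-27217019, plus strand). The stretch of Hsd17b7 begins inside a GC box.
Mvk: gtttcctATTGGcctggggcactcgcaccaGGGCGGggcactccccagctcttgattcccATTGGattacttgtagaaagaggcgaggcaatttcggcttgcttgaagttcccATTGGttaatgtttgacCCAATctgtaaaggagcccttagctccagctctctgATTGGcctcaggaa
Idi1: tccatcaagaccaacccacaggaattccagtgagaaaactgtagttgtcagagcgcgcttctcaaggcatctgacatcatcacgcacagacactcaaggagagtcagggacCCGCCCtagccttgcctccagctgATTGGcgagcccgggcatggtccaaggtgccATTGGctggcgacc
Lss: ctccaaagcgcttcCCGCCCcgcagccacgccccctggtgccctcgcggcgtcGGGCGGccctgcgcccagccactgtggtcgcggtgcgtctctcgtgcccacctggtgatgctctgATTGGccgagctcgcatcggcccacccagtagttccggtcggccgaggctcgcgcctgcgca
Msmo1: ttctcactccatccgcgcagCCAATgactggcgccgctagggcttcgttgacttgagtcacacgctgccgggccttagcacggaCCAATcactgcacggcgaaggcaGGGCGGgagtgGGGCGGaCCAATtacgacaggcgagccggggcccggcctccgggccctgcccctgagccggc
Hsd17b7: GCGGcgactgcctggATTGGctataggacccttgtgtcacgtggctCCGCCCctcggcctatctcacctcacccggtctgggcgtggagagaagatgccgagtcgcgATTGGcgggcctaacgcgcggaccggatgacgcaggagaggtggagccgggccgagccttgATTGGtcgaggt
Vldlr: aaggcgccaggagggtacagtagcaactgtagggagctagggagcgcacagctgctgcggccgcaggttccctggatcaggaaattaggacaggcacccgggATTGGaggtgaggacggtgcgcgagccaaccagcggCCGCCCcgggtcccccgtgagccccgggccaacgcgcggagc

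A gene was counted if any of its windows matched. CCAAT or ATTGG was in the windows of 11 of 12 synthesis genes and of 7 of 13 genes of regulation and transport. In the synthesis genes Pmvk and Dhcr7 these letters stood only in a window away from the start of the transcript analysed. They were in 37.4% of all 32851 windows of the reference table and in 43.6% of the 8866 genes of the expression table that had a window. In Mvk, ATTGG stood at -173, -120, -67 and -14 and CCAAT at -50, counted by their first letter, with -1 as the base before the start site. GGGCGG or CCGCCC was in the windows of 11 of 12 synthesis genes and 10 of 13 of the others, against 35.7% of all windows and 65.9% of genes of the expression table. The core letters of the sterol regulatory element that SREBPs bind, TCACNCCAC on either strand, were in none of the 12 synthesis genes and in 1 of the 13 others, Stard3, against 1.24% of all windows. These are matches of letters in short windows and not sites, and a match of CCAAT and a match of a GC box can share up to 2 letters. Only the exact letters were searched. A gene without a match can therefore still hold an element that differs from them or lies outside its windows.

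Levels are in FPKM, fragments per kilobase of transcript (RNA-seq) or of coding sequence (CDS, footprints) scaled to library size, and so can be compared between genes within a kind of library. Most synthesis enzymes were among the abundant transcripts: by RNA, 13 of 15 stood above percentile 80 of all transcripts in OPCs and 14 of 15 in OLs. The lowest was Ebp, at percentile 62.1 in OPCs and 65.1 in OLs. Sqle, the squalene epoxidase that catalyses a rate-limiting step, had 206 and 158 FPKM of RNA in OPCs (replicate 1, then 2) against 161 and 163 FPKM in OLs (likewise), and stood at percentile 97.7 of all transcripts in OPCs and 97.5 in OLs. Fdps, which makes farnesyl diphosphate, had 168 and 126 FPKM in OPCs against 122 and 134 FPKM in OLs. Msmo1, which removes methyl groups after lanosterol, had 138 and 109 FPKM in OPCs against 122 and 148 FPKM in OLs. In each of these enzymes the RNA ranges of the cell types overlapped.

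Insig1, the ER retention protein that is itself a target of SREBP, was the most abundant regulator, with 140 and 88.9 FPKM of RNA in OPCs against 129 and 134 FPKM in OLs. The order of RNA levels in OPCs ran Sqle, Fdps, Msmo1, Insig1, Cyp51 and Acat2, and the ranges of neighbours in this order overlapped except between Insig1 and Cyp51. In OLs it opened with Apoe, then Sqle, Msmo1, Insig1, Fdps and Acat2, with 178 ± 92.1 FPKM (SD, n = 2) for Apoe. The place of Apoe rested on OL replicate 1, since in OL replicate 2 its 113 FPKM lay below Sqle, Msmo1, Insig1 and Fdps. Neighbours in the OL order overlapped except between Sqle and Msmo1 and between Fdps and Acat2. At the other end Nr1h3 had at most 0.449 FPKM of RNA, with 0.170 and 0 FPKM in OPCs against 0.323 and 0.449 FPKM in OLs, and was listed at 0 in all 4 footprint libraries. It fell under the minimum mean of 1 FPKM and was not tested, which left 29 tested members in each comparison.

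**Figure D1:**
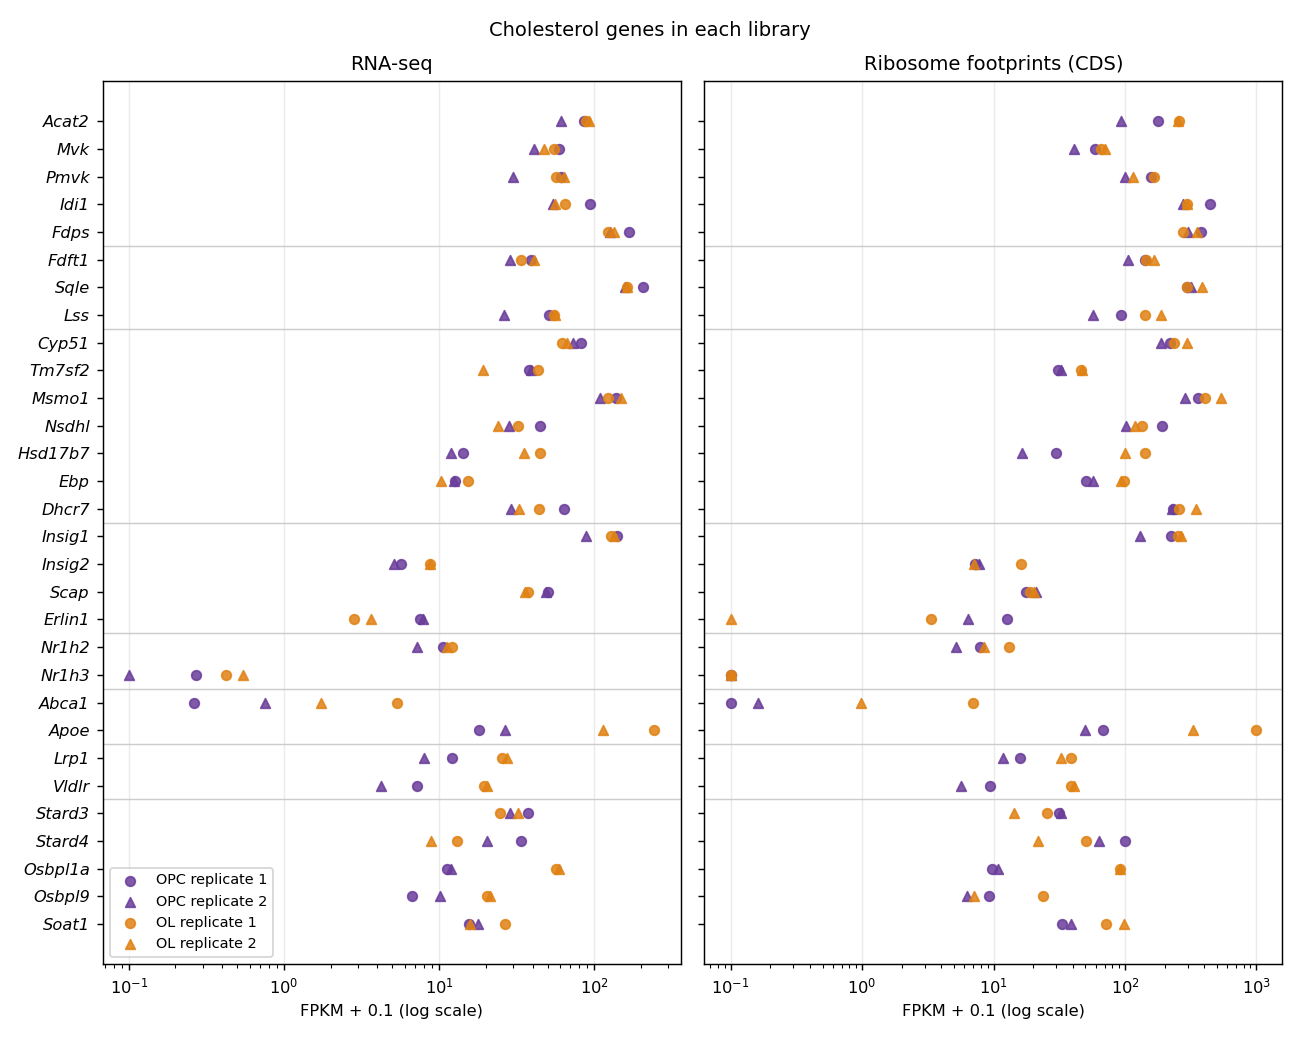
RNA-seq and footprint levels (FPKM + 0.1, log axes) of the 30 genes, with 1 point for each library. OPC replicates are purple, OL replicates orange, circles are replicate 1 and triangles replicate 2, and grey lines part the roles. Apoe rises from 18.1 and 26.6 to 244 and 113 FPKM of RNA, while most enzymes at the top overlap between cell types.

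The first comparison asks how the RNA of these genes differed between OLs and OPCs. Of 29 tested members, 6 were higher in OLs (Apoe, Osbpl1a, Vldlr, Hsd17b7, Lrp1 and Osbpl9), 2 were lower (Stard4 and Erlin1) and 21 did not pass an adjusted p of 0.05 (limma, Benjamini-Hochberg over all transcripts). Among all 8346 tested transcripts 13.0% were higher and 20.2% lower, so 20.7% and 6.9% of the members were called. The median log2 difference was 0.15 for the members and -0.23 for all transcripts. Scaling each library by its median ratio moved the median of all transcripts to -0.05 and the share of calls that were higher from 39.1% to 51.5%, so small differences are read relative to that shift. By role, 5 of 14 genes of regulation and transport were higher and 2 lower, and of 15 enzymes 1 was higher and 0 lower. The difference between these groups was not tested.

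The same comparison of footprints asks how much ribosome-bound mRNA differed. In footprints 7 members were higher in OLs (Apoe, Osbpl1a, Vldlr, Hsd17b7, Lrp1, Soat1 and Ebp) and 0 were lower, out of 29, with 11 members at an unadjusted p under 0.05, 0 of them lower (limma). Among all 8342 tested transcripts 12.8% were higher and 10.8% lower, and 3173 had an unadjusted p under 0.05 in either direction (limma). The median log2 difference was 0.55 for the members and -0.16 for all. In 18 members both OL values lay above both OPC values and in 3 both lay below, while this held for 31.8% and 37.9% of all transcripts.

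**Figure D2:**
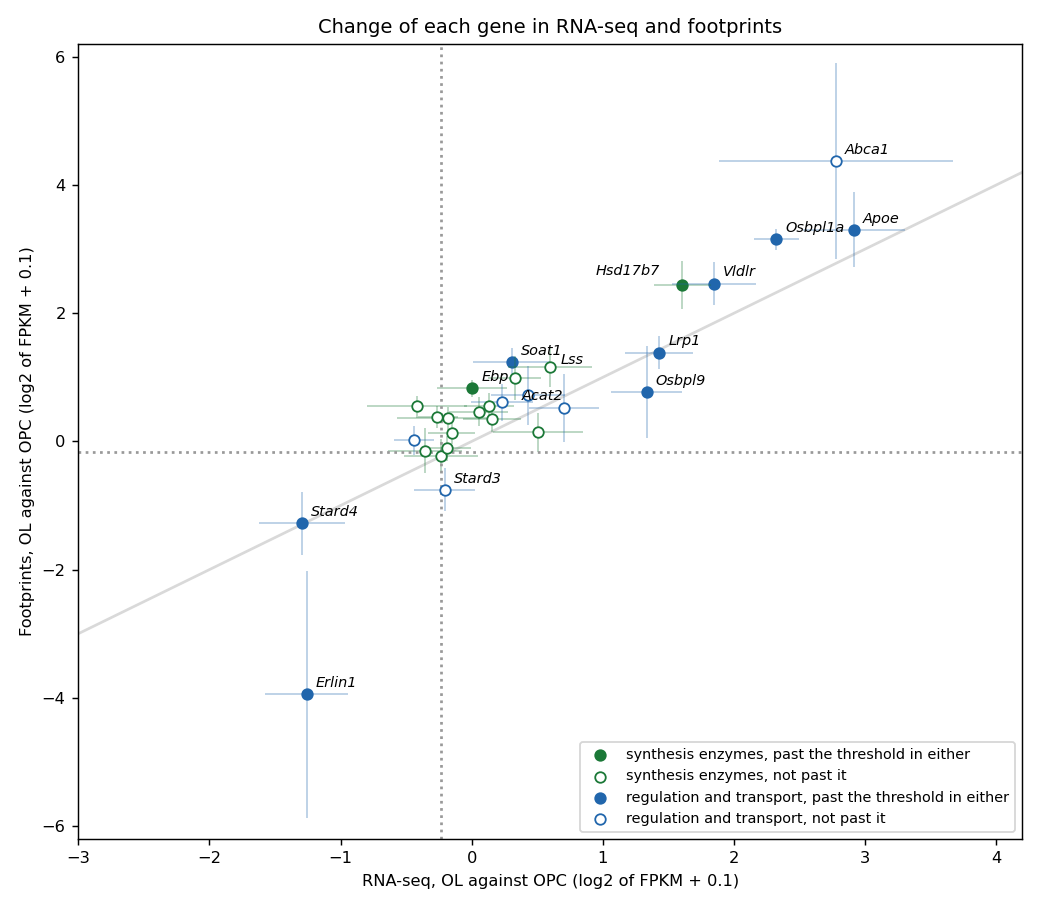
Log2 difference, OL against OPC, of RNA-seq (x axis) and footprints (y axis) for the 29 tested genes, on the log2(FPKM + 0.1) scale, with bars of 1 standard error. Filled points passed the threshold in either kind of library, dotted lines are the medians of all transcripts (-0.23 and -0.16), and the grey line marks equal change. The enzymes other than Hsd17b7 lie near 0 in RNA-seq, and most lie above the line.

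Both comparisons rest on 2 cultures a cell type. Without OPC replicate 1 or without OPC replicate 2, 0 of 8342 transcripts passed in footprints by limma, members included, with 1961 and 1934 at an unadjusted p under 0.05. In RNA-seq Osbpl1a passed under all 12 settings tried, with an adjusted p of at most 0.0423 (limma), while the other members called in RNA-seq each lost the call without OPC replicate 1 and without OPC replicate 2. Vldlr, Lrp1, Osbpl9, Stard4 and Erlin1 also lost it without OL replicate 1 and without OL replicate 2. In footprints Ebp, Hsd17b7, Lrp1 and Vldlr lost it without either OL culture and Soat1 without OL replicate 2, while Apoe and Osbpl1a kept it in both of those fits.

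The 5 mevalonate-step genes present did not pass in either kind of library. Acat2, a cytosolic thiolase that joins acetyl-CoA units, had 85.8 and 61.1 FPKM of RNA in OPCs against 88.9 and 92.9 FPKM in OLs. Its footprints were 180 and 93.0 FPKM in OPCs against 259 and 254 FPKM in OLs, with OLs above OPCs in every library, and a log2 difference of 0.99 ± 0.35 (SE, limma adjusted p = 0.121). Mvk, the mevalonate kinase, had 58.9, 41.0, 55.3 and 47.0 FPKM of RNA in OPC 1, OPC 2, OL 1 and OL 2, without separation of the cell types. Pmvk, the next kinase, had 61.0, 29.6, 56.6 and 64.2 FPKM in the same order, and OPC replicate 2 was the low library. Idi1, which interconverts the isoprenoid diphosphates, had 93.2, 53.7, 65.0 and 55.6 FPKM, and OPC replicate 1 was the high one. Fdps had footprints of 377, 299, 277 and 352 FPKM, which overlapped between the cell types. Of its 1237 bases of transcript, 945 are shared with a second annotated gene on the same strand, so its reads could be split between them.

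Of the 3 genes that make squalene and lanosterol, none passed. Fdft1, the squalene synthase, had 38.9, 28.5, 33.5 and 40.8 FPKM of RNA. Sqle had footprints of 299, 319, 297 and 382 FPKM, and both kinds of its values overlapped between the cell types. Lss, the cyclase that forms lanosterol, had 51.1 and 26.1 FPKM of RNA in OPCs against 54.7 and 56.0 FPKM in OLs, and footprints of 93.8 and 57.1 FPKM in OPCs against 142 and 187 FPKM in OLs. Both OL values of Lss lay above both OPC values in both kinds of library, and its footprint difference was 1.15 ± 0.30 on the log2 scale (SE, limma adjusted p = 0.0666). Part of the transcripts of Fdft1 and Lss overlaps genes of the opposite strand, over 771 of 2860 and 381 of 4667 bases, and the strand setting of the authors' counting is not given in the sources used here.

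Of the 7 enzymes after lanosterol, Hsd17b7 was the one that rose in RNA. Hsd17b7 encodes the ketosteroid reductase that works with Nsdhl and Msmo1 in removing methyl groups (chr1:169949535-169969241, minus strand, 9 exons). It had 14.2 and 11.8 FPKM of RNA in OPCs against 44.9 and 35.1 FPKM in OLs. Its footprints were 29.7 and 16.3 FPKM in OPCs against 143 and 99.7 FPKM in OLs. No OPC library reached an OL library. The difference was 1.61 ± 0.22 in RNA-seq (adjusted p = 0.00467) and 2.43 ± 0.37 in footprints (adjusted p = 0.0208), on the log2 scale with the SE of limma. Its partners did not pass: Nsdhl, the dehydrogenase of that complex, had 44.6, 28.2, 32.0 and 23.9 FPKM of RNA, and Msmo1 had footprints of 358, 286, 404 and 541 FPKM.

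Ebp, the sterol isomerase (chrX:8185329-8193512, minus strand, 5 exons), passed in footprints and not in RNA-seq. Its RNA was 12.6 and 12.4 FPKM in OPCs against 15.3 and 10.2 FPKM in OLs, and its footprints were 50.7 and 57.3 FPKM in OPCs against 98.9 and 92.7 FPKM in OLs. The OL footprint values stood above both OPC values, and the RNA values overlapped. The footprint difference was 0.83 ± 0.14 on the log2 scale (limma adjusted p = 0.0237), and the RNA difference was 0.0036 ± 0.27 (adjusted p = 0.993). Whether the footprint difference exceeded the RNA difference was tested as a change in ribosome density, which did not pass the correction (unadjusted p = 0.0321, adjusted p = 0.875).

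Cyp51, the lanosterol demethylase, had 82.3 and 72.4 FPKM of RNA in OPCs against 61.6 and 67.1 FPKM in OLs, and footprints of 220 and 188 FPKM in OPCs against 234 and 299 FPKM in OLs. Its OL values lay below the OPC values in RNA and above them in footprints, and neither passed (limma adjusted p = 0.242 and 0.201). Tm7sf2, a sterol reductase, had 38.0, 39.03, 43.4 and 19.1 FPKM of RNA and footprints of 30.9, 32.6, 46.1 and 47.1 FPKM, with OL replicate 2 standing apart in RNA. Dhcr7, a reductase of the final steps, had 64.2, 29.2, 44.0 and 32.9 FPKM of RNA and footprints of 233, 228, 255 and 344 FPKM. Neither of the latter passed in either kind of library.

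Summed over the 15 enzymes, RNA was 1157 and 826 FPKM in OPCs against 1001 and 989 FPKM in OLs. The OL sums lay between the OPC sums. Summed footprints were 2867 and 2200 FPKM in OPCs against 2966 and 3364 FPKM in OLs. Over the 15 genes of regulation and transport, RNA summed to 356 and 285 FPKM in OPCs against 625 and 493 FPKM in OLs. Apoe alone made up 18.1 and 26.6 FPKM of these sums in OPCs and 244 and 113 FPKM in OLs. It was the most abundant of these genes in OL replicate 1.

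The OPC cultures differed from each other in synthesis genes. OPC replicate 1 had more RNA than OPC replicate 2 in 14 of the 15 enzymes, with a median log2 ratio of 0.45, while 51.5% of all transcripts were higher in replicate 1, with a median of 0.02. In footprints it was 12 of 15 enzymes, with a median of 0.42, against 46.7% and -0.01 for all transcripts. The largest RNA ratios were those of Dhcr7 (1.14), Pmvk (1.04), Lss (0.96) and Idi1 (0.79), on the log2 scale. Insig1 (0.66), Stard4 (0.72) and Vldlr (0.77) were higher in the same culture, while Scap (0.04) and Osbpl1a (-0.09) were close to even and Abca1 (-1.51), Osbpl9 (-0.59) and Apoe (-0.55) were lower in it. Of the 14 tested genes of regulation and transport, 8 were higher in OPC replicate 1.

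The OL cultures did not show that direction. OL replicate 1 was above replicate 2 in 7 of 15 enzymes in RNA and 6 of 15 in footprints, with medians of -0.02 and -0.09, while the medians of all transcripts were 0.15 and 0.28. Read within replicate pair 1, 10 of 15 enzymes had less RNA in the OLs, with a median log2 difference of -0.17. Within pair 2 it was 4 of 15, with a median of 0.17. The medians of all transcripts were -0.14 and -0.27 in these pairs. In footprints 4 of 15 enzymes were lower in pair 1 and 0 in pair 2, so the RNA direction of the enzymes depended on which pair was read. With 2 cultures this is a description and has no test.

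**Figure D3:**
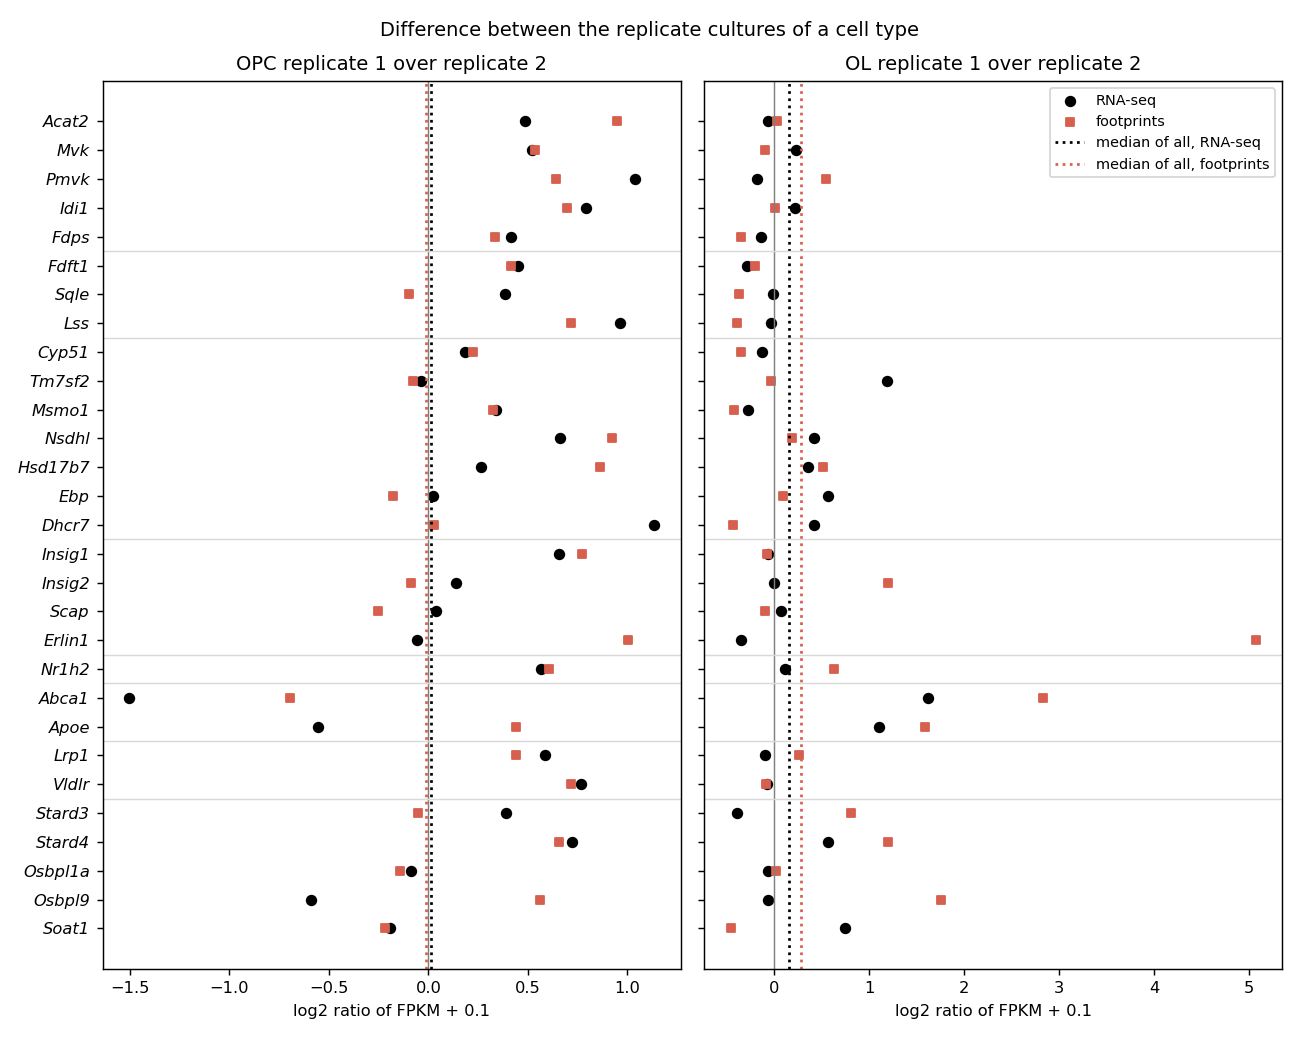
Log2 ratio of replicate 1 over replicate 2 within OPCs (left) and within OLs (right), in FPKM + 0.1, for the 29 tested genes, with RNA-seq as black circles and footprints as red squares. Dotted lines are the medians of all transcripts. In OPCs 14 of 15 enzymes lie right of 0 in RNA-seq, and in OLs 7 of 15 do.

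Of the 4 genes that control SREBP, Erlin1 was lower in OL RNA and the others did not pass. Erlin1, an ER protein that binds cholesterol and restrains SREBP (chr19:44034944-44069775, minus strand, 12 exons), had 7.40 and 7.72 FPKM of RNA in OPCs against 2.73 and 3.51 FPKM in OLs. It was lower by a log2 difference of -1.26 ± 0.32 (SE, limma adjusted p = 0.0305), which under median-ratio scaling was -1.08 and no longer passed. Its footprints were 12.6 and 6.23 FPKM in OPCs against 3.27 and 0 FPKM in OLs, and did not pass (limma adjusted p = 0.219).

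Scap, the escort of SREBP, had 50.3 and 49.0 FPKM of RNA in OPCs against 37.4 and 35.7 FPKM in OLs, without overlap, with a log2 difference of -0.44 ± 0.15 (SE, limma adjusted p = 0.0763). Its footprints overlapped, at 17.7, 21.1, 18.9 and 20.2 FPKM. Insig1 footprints were 223 and 130 FPKM in OPCs against 254 and 267 FPKM in OLs (limma adjusted p = 0.209). Insig2, its less abundant relative, had 5.54 and 5.02 FPKM of RNA in OPCs against 8.65 and 8.68 FPKM in OLs (log2 difference 0.70 ± 0.27, limma adjusted p = 0.0911), and passed under median-ratio scaling (adjusted p = 0.0466).

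Nr1h2, the liver X receptor beta, had 10.5 and 7.06 FPKM of RNA in OPCs against 12.1 and 11.2 FPKM in OLs, and did not pass (limma adjusted p = 0.283). Apoe, the main apolipoprotein of the brain and a liver X receptor target (chr7:19696272-19699052, minus strand, 4 exons), rose in both kinds of library. Its RNA was 18.1 and 26.6 FPKM in OPCs against 244 and 113 FPKM in OLs, and its footprints were 67.7 and 49.8 FPKM in OPCs against 995 and 330 FPKM in OLs. The cell types did not overlap, and OL replicate 1 was the highest library in both. The ratio of group means was 7.98 in RNA-seq and 11.3 in footprints, with log2 differences of 2.91 ± 0.39 (adjusted p = 0.00453) and 3.30 ± 0.58 (adjusted p = 0.0278) by limma. Without OL replicate 1 these ratios were 5.07 and 5.61, and without OL replicate 2 they were 10.9 and 16.9.

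Abca1, the pump that loads cholesterol onto apolipoproteins, had 0.165 and 0.652 FPKM of RNA in OPCs against 5.28 and 1.64 FPKM in OLs, and footprints of 0 and 0.0619 FPKM in OPCs against 6.93 and 0.889 FPKM in OLs. OL replicate 1 was again the highest library. With log2 differences of 2.78 ± 0.89 (adjusted p = 0.0596) and 4.37 ± 1.53 (adjusted p = 0.121) by limma, it did not pass. The footprint log2 difference was 2.96 without OL replicate 1 and 5.79 without OL replicate 2. Each of these fits held 1 OL culture, so the difference between the OL cultures did not enter its error.

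Astrocytes also make Apoe, so their markers are given beside these values. Of 8 listed astrocyte markers, 6 had a row, and 3 of them were higher in OL RNA (S100b, Slc1a2 and Gfap), with summed RNA of 307 and 221 FPKM in OPCs against 1021 and 896 FPKM in OLs. Most of that rise was S100b, at 20.6 and 12.6 FPKM in OPCs against 675 and 633 FPKM in OLs, a gene that oligodendrocytes also express. Gfap, a defining marker, had 0.155 and 0 FPKM in OPCs against 14.2 and 2.11 FPKM in OLs. Aldh1l1 had 0.671 and 0.390 FPKM in OPCs against 5.41 and 1.27 FPKM in OLs. Like Apoe and Abca1, Gfap and Aldh1l1 were higher in OL replicate 1 than in OL replicate 2 in RNA-seq. So were 64.2% of all tested transcripts, and the part of these markers in the Apoe and Abca1 results was not tested. Aldoc had 209, 159, 235 and 187 FPKM of RNA and Fgfr3 63.0, 38.3, 44.1 and 36.6 FPKM in OPC 1, OPC 2, OL 1 and OL 2. Both overlapped between the cell types. Of the microglial markers Cd68, Csf1r and P2ry12, none exceeded 1.22 FPKM in any RNA library, and all were at 0 in both OL RNA libraries. In such bulk samples, fewer cells of a type and less RNA per cell cannot be told apart.

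Both uptake receptors among the members with a row, Vldlr and Lrp1, rose in both kinds of library. Vldlr, a receptor for lipoproteins that carry Apoe (chr19:27217357-27254231, plus strand, 19 exons), had 7.14 and 4.15 FPKM of RNA in OPCs against 19.4 and 20.4 FPKM in OLs. Its footprints were 9.22 and 5.58 FPKM in OPCs against 38.8 and 41.1 FPKM in OLs. The cell types did not overlap, with log2 differences of 1.85 ± 0.32 in RNA-seq (adjusted p = 0.00937) and 2.46 ± 0.34 in footprints (adjusted p = 0.0164) by limma. Lrp1, a large endocytic receptor of many ligands including Apoe (chr10:127538161-127621148, minus strand, 89 exons), had 11.9 and 7.91 FPKM of RNA in OPCs against 25.5 and 27.3 FPKM in OLs, and footprints of 15.8 and 11.6 FPKM in OPCs against 39.03 and 32.5 FPKM in OLs. Its log2 differences were 1.43 ± 0.26 (adjusted p = 0.0112) and 1.39 ± 0.26 (adjusted p = 0.0325). Scarb1, a lipoprotein receptor that is not a member, went the other way, and is named here after its values were seen. Its RNA was 57.5 and 47.5 FPKM in OPCs against 17.0 and 14.1 FPKM in OLs, which passed (limma adjusted p = 0.00296). Scarb1 footprints were 85.7 and 52.3 FPKM in OPCs against 20.5 and 4.70 FPKM in OLs, and did not pass (limma adjusted p = 0.0806).

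Of the carriers, Osbpl1a, an oxysterol-binding protein relative of late endosomes, rose in both kinds of library. It had 11.2 and 11.9 FPKM of RNA in OPCs against 56.7 and 59.3 FPKM in OLs, and footprints of 9.70 and 10.7 FPKM in OPCs against 92.0 and 90.9 FPKM in OLs. Replicates lay close together and far from the other cell type, with log2 differences of 2.32 ± 0.17 (adjusted p = 0.00093) and 3.15 ± 0.17 (adjusted p = 0.00414) by limma. Osbpl9, a relative that acts where ER and Golgi meet (chr4:109062079-109202272, minus strand, 23 exons), had 6.63 and 10.0 FPKM of RNA in OPCs against 20.3 and 21.2 FPKM in OLs, with a log2 difference of 1.33 ± 0.27 (limma adjusted p = 0.0156). Its footprints were 9.15 and 6.17 FPKM in OPCs against 23.8 and 6.97 FPKM in OLs, which overlapped and did not pass (limma adjusted p = 0.461).

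Stard4, a soluble sterol carrier and SREBP target, went the other way. It had 33.7 and 20.4 FPKM of RNA in OPCs against 12.9 and 8.72 FPKM in OLs, and footprints of 101 and 63.7 FPKM in OPCs against 50.0 and 21.7 FPKM in OLs. Each OL value lay below each OPC value, and the RNA difference passed at -1.30 ± 0.33 on the log2 scale (limma adjusted p = 0.0307). The footprint difference of -1.28 ± 0.49 did not pass (adjusted p = 0.148), but passed with the replicate pairs as a block (limma adjusted p = 0.0344). Stard3, a sterol carrier of late endosomes, had 37.3, 28.4, 24.6 and 32.3 FPKM of RNA, which overlapped, and footprints of 31.5 and 32.7 FPKM in OPCs against 25.2 and 14.3 FPKM in OLs (limma adjusted p = 0.19).

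Soat1, which esterifies cholesterol for storage (chr1:156429793-156466804, minus strand, 15 exons), rose in footprints. These were 33.0 and 38.4 FPKM in OPCs against 71.6 and 98.4 FPKM in OLs, a log2 difference of 1.24 ± 0.22 (limma adjusted p = 0.0274). Its RNA was 15.5 and 17.7 FPKM in OPCs against 26.6 and 15.8 FPKM in OLs, which overlapped and did not pass (limma adjusted p = 0.453).

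Ribosome density (RD), footprint FPKM over RNA FPKM, sets footprints per length of CDS against RNA per length of transcript, each scaled to its own library. It is a relative density and not a number of ribosomes on an mRNA. The synthesis enzymes had a median RD of 2.58 and 2.60 in the OPC cultures and 3.18 and 3.33 in the OL cultures, where all transcripts had 1.72, 1.77, 2.02 and 1.95. They lay above the median of all transcripts in 12, 11, 12 and 13 of 15 genes. Genes of regulation and transport had medians of 1.33, 1.25, 1.58 and 1.19. Dhcr7 had an RD of 3.63, 7.83, 5.80 and 10.5, and Ebp of 4.03, 4.63, 6.48 and 9.05, while Scap stayed low at 0.352, 0.431, 0.505 and 0.566. Of the 4227 transcript bases of Scap, 785 overlap a gene of the opposite strand. Whether reads of that gene entered the RNA value of Scap was not tested.

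No member changed its RD past the threshold: 0 of 29 were called by limma, with 0.0124% of 8056 transcripts called overall. Of the 8056 transcripts, 387 had an unadjusted p under 0.05 (limma), and so had 3 members (Cyp51, Ebp and Osbpl1a). Osbpl1a had the smallest p of these 3 members, with a log2 change in RD of 0.83 ± 0.21 (unadjusted p = 0.00592, adjusted p = 0.766). The RD change was positive in 14 of 15 enzymes, with a median of 0.42, where the median of all transcripts was 0.10. Under median-ratio scaling it was positive in 12 of 15, with a median of 0.25 for the enzymes and -0.06 for all transcripts.

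**Figure D4:**
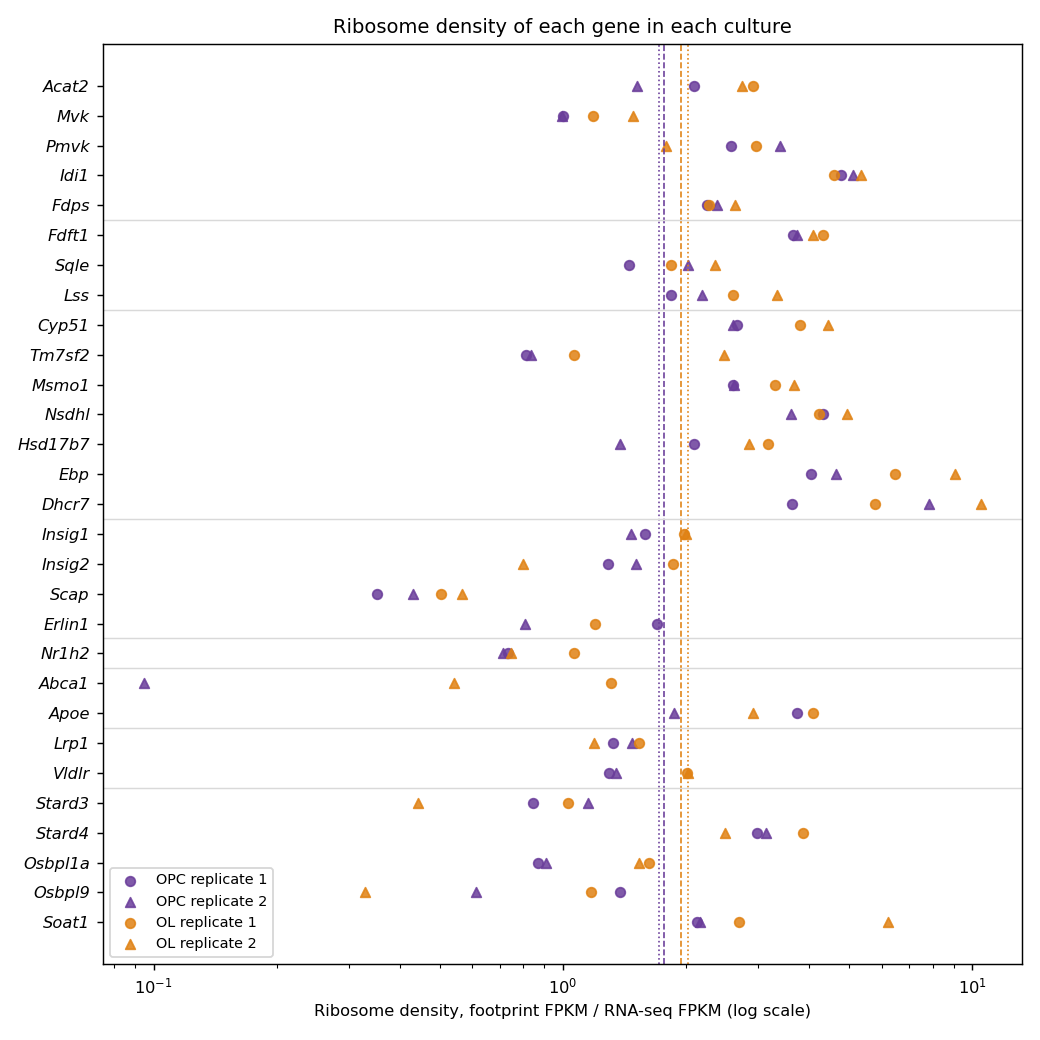
Ribosome density (footprint FPKM over RNA-seq FPKM, log axis) of each gene in each culture. OPCs are purple, OLs orange, circles replicate 1 and triangles replicate 2, and vertical lines are the medians of all transcripts in each culture (1.72, 1.77, 2.02 and 1.95). Most synthesis enzymes lie right of those lines and most genes of regulation and transport left of them.

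The study asks about the codons UUU and AAA, whose tRNAs it compares between the cell types. The share of phenylalanine codons written UUU had a median of 0.426 over the 30 members and 0.429 over all listed transcripts. The share of lysine codons written AAA had a median of 0.349 against 0.368. By these shares 13 of 30 and 15 of 30 members were above the median of all, so the genes were close to the middle of the table. Erlin1 and Stard4, which were lower in OL RNA, had UUU shares of 0.636 and 0.571 and AAA shares of 0.621 and 0.818. Of the 6 members higher in OL RNA, Apoe had 0.25 and 0.167, Lrp1 0.343 and 0.185, and Osbpl9 0.4 and 0.4. Vldlr had 0.55 and 0.522, Osbpl1a 0.515 and 0.438, and Hsd17b7 0.588 and 0.438, above the medians of all in both shares.

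A second list named other genes of the pathway that are not members. Of 59 symbols 41 had a row and 37 were tested in RNA-seq, where 4 were higher in OLs and 11 lower, beside 13.0% and 20.2% of all transcripts. In footprints 6 of 37 were higher and 2 lower, beside 12.8% and 10.8% of all. Among those higher, Abca2, an ABC transporter abundant in oligodendrocytes, had 9.73 and 7.17 FPKM of RNA in OPCs against 63.1 and 39.1 FPKM in OLs (log2 difference 2.56 ± 0.30, limma adjusted p = 0.00315). Scarb2, a lysosomal membrane protein, rose by 1.75 ± 0.18 (adjusted p = 0.00218), and Fntb, a subunit of farnesyltransferase, by 1.33 ± 0.26 (adjusted p = 0.0143). Apod, an apolipoprotein, was listed at 0 in both OPC RNA libraries and had 7.88 and 4.49 FPKM of RNA in OLs.

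Among those lower, Tmem97, a sterol-regulated ER protein, had 44.3 and 53.0 FPKM of RNA in OPCs against 12.7 and 10.8 FPKM in OLs (log2 difference -2.04 ± 0.20, limma adjusted p = 0.00201). Pdss1, which makes the side chain of coenzyme Q, differed by -1.97 ± 0.27 (limma adjusted p = 0.00486). Pltp, a phospholipid transfer protein, had 1.38 and 3.03 FPKM of RNA in OPCs and was listed at 0 in both OL RNA libraries. Its footprints were 6.18 and 9.82 FPKM in OPCs against 5.26 and 0 FPKM in OLs, and did not pass (limma adjusted p = 0.305). The 3 subunits of NF-Y, named here after their values were seen, were also lower in OL RNA, with log2 differences of -1.54 for Nfyc, -1.39 for Nfya and -0.995 for Nfyb. Under median-ratio scaling Nfyc passed (limma adjusted p = 0.0113) and Nfya (0.0557) and Nfyb (0.069) did not. In footprints none of the 3 passed as deposited, and Nfyc passed under that scaling (adjusted p = 0.0307). Sp1 and the SREBP gene Srebf1, likewise named after their values were seen, had log2 differences of -0.595 and -0.686 in RNA-seq. Sp1 did not pass (limma adjusted p = 0.0575). Srebf1 passed as deposited (limma adjusted p = 0.0369) and not under median-ratio scaling (0.0682). Neither of these genes passed in footprints (limma adjusted p = 0.146 and 0.118).

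Facts of the whole data set bear on these values as follows. Summed RNA of the 9 oligodendrocyte markers with a row was 34.3 and 36.7 FPKM in OPCs against 3749 and 3271 FPKM in OLs. Of 5 OPC markers, 4 were higher in OLs, with sums of 331 and 317 against 690 and 787 FPKM, so the OPC list did not mark the OPC cultures. The 3 proliferation markers with a row were lower in OLs, and those of neurons summed to 124, 111, 161 and 172 FPKM. The read depth of the libraries is unknown, since FPKM do not hold it, and RD could be computed for 7915, 7824, 7964 and 7043 transcripts, fewest in OL replicate 2.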

How the data were processed

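RNA-seq and ribosome footprints of 2 OPC and 2 OL cultures were analysed as the FPKM that the authors deposited for 10987 transcripts of 10982 genes. Per the labels the reads were handled with HISAT2 2.1.0 and StringTie 1.3.5 on GRCm38, with footprints tabulated on the CDS. Low FPKM were searched for whole-read steps, which gave no depth that could be relied on. From the FPKM, log2(FPKM + 0.1) was fitted with limma 3.58.1 (eBayes with trend, R 4.3.3) keeping transcripts whose mean reached 1 FPKM, OL against OPC in RNA-seq and in footprints, and their interaction for RD, with two-sided p-values adjusted by Benjamini-Hochberg over all transcripts at 0.05. Fold changes on this scale understate the change of low genes. An exact permutation test of 2 against 2 cultures cannot go below p = 0.333, so none was used. The fits were also run on simulated data with independent noise for each transcript and no shift shared by a whole culture. That run cannot show how such a shift affects the calls. Members, lists and motifs were chosen with earlier results of these data known, every member with a row was named, and of the other pathway genes the 4 largest rises and falls that passed and moved alike in both pairs, of which 1 is not reported here.

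Replicate numbers were taken as pairs because the study differentiated the OLs from the corresponding OPC cultures. Same-numbered OPC and OL libraries deviated together with r = 0.108 in RNA-seq and 0.086 in footprints, across transcripts. Alternatives were other pseudocounts, other minimum levels, no variance trend, median-ratio scaling, the replicate block and leaving out each culture. Gene positions and codons came from Gencode vM21 (GRCm38).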

Additional observations from a re-analysis of the deposited data

How the results depend on the processing

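Other pseudocounts, a minimum of 5 FPKM and the replicate block kept each count of members within 1.5 times of that given, except for Stard4 in footprints under the block. With no minimum the members higher in RNA-seq were 2 instead of 6 and in footprints 3 instead of 7, and with no variance trend those in footprints were 2. Members lower in RNA-seq were 1 instead of 2 with no minimum, with no variance trend and under median-ratio scaling. With the replicate block, which pairs cultures of one number, 1 member was lower in footprints (Stard4) instead of 0, and the block changed no other call of a member. Under median-ratio scaling Sqle turned from -0.15 to 0.028 in RNA-seq. Leaving out 1 culture at a time gave 1 to 3 members higher and 0 to 1 lower in RNA-seq, 0 to 4 higher and 0 to 2 lower in footprints, and 0 to 3 past the threshold in RD, the last without OL replicate 1 (Tm7sf2, Soat1 and Erlin1). The cell type left with 1 culture was then assumed to vary like the other. Without OL replicate 1, calls in RD also rose across the whole table. That fit therefore does not set Tm7sf2, Soat1 and Erlin1 apart from other transcripts, and their RD is not read as changed. Over all transcripts, calls in RNA-seq went from 2772 to 1715 with no minimum and to 360 and 304 without OPC replicate 1 and 2 and 1506 without OL replicate 2, and in footprints from 1969 to 1163 with no minimum, 1036 with no trend and 0 without either OPC culture, 943 without OL replicate 2 and 3010 without OL replicate 1. The cause of these shifts was not tested. Log2 differences that changed sign when 1 culture was left out ran, in RNA-seq, for Dhcr7 from -0.75 to 0.38, Ebp from -0.28 to 0.29, Fdft1 from -0.070 to 0.38, Fdps from -0.40 to 0.017, Idi1 from -0.63 to 0.16, Insig1 from -0.095 to 0.56, Msmo1 from -0.038 to 0.30, Mvk from -0.21 to 0.31, Pmvk from -0.017 to 1.02, Soat1 from -0.070 to 0.68, Sqle from -0.34 to 0.039 and Tm7sf2 from -1.01 to 0.17, and in footprints for Fdps from -0.28 to 0.066, Idi1 from -0.58 to 0.12, Insig2 from -0.081 to 1.12, Nsdhl from -0.61 to 0.32, Osbpl9 from -0.11 to 1.65, Pmvk from -0.18 to 0.46, Scap from -0.11 to 0.14 and Sqle from -0.059 to 0.31. Depth is unknown, and a value of 0 FPKM can be a failed estimate.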
